A study of Mus musculus with 6 samples.

Results

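The 10 genes described here encode S100 proteins, namely S100a1, S100a4, S100a6, S100a8, S100a9, S100a10, S100a11, S100a13, S100a14 and S100a16, and were taken by symbol from a table of 21959 genes. The table names 18 S100 genes in all. Messenger RNA was sequenced from MPC, a mouse gastric adenocarcinoma cell line labelled CDH1-/-;Trp53-/-, and from MPC-PTX, a paclitaxel (PTX) resistant line raised from it over more than 30 cycles of PTX, with 3 libraries per line. The study's text calls these lines MTC and MTC-R. The parent line came from stomach organoids of a C57BL/6J mouse with floxed Trp53 and Cdh1 alleles and Mist1-CreER that had been grown under the skin of a nude mouse, and Mist1-CreER directs recombination to cells that express Mist1, such as chief cells. Both lines carry the same deletions, both were grown in RPMI medium with serum, and each was selected as a single clone, so a difference between the lines cannot be told apart from a difference between 2 clones. The labels do not say whether the 3 libraries of a line were separate cultures, so p-values measure the spread between these libraries, which may be technical.

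S100 proteins are small calcium sensors. Each chain carries a pair of EF-hands, the helix-loop-helix fold that holds a calcium ion, and most S100 proteins work as dimers that expose a binding surface for partner proteins once calcium is bound. Inside the cell they bind annexins, cytoskeletal proteins and enzymes, and some are released and act on surface receptors such as RAGE (encoded by Ager) and TLR4. Several S100 genes lie side by side in the epidermal differentiation complex, a stretch of mouse chromosome 3 that also holds the genes of the cornified envelope of skin. Epithelia express many of them.

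Library totals ranged from 16574580 to 23148182 counts, with 13897 to 14295 genes detected. Cdh1 had a mean of 134.3 CPM (counts scaled by an equal, TMM-adjusted library size) in MPC and 132.9 in MPC-PTX, and Trp53 had 4.74 and 6.17. Counts per gene do not show whether a deleted exon is missing. Replicates of MPC varied more than those of MPC-PTX, with a biological coefficient of variation of 17.9% against 3.01%. All 8 epithelial markers were detected in both lines and all 8 were lower in MPC-PTX, with a summed level of 9560 to 11076 CPM in MPC and 5777 to 5963 CPM in MPC-PTX. Of 11 stomach lining markers, Gkn2, Tff1, Tff2 and Pgc were at 0 in all libraries, and Ctse, Anxa10, Gkn3 and Muc1 were tested and lower. The part of these marker changes in the S100 values was not tested, and in bulk RNA fewer cells of a type and less RNA per cell cannot be told apart.

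Of the 10 S100 genes, 7 had enough counts to be tested. In MPC-PTX cells 5 of them, S100a14, S100a11, S100a6, S100a16 and S100a10, were lower, none was higher, and S100a1 and S100a13 did not pass the test (edgeR's quasi-likelihood test, Benjamini-Hochberg adjusted p below 0.05 over 11795 genes). Over all tested genes 29.7% passed, 15.6% lower and 14.1% higher. The median log2 fold change (MPC-PTX against MPC) of the 7 genes was -0.56, and that of all tested genes was 0.04. The 5 lower genes were also those whose groups did not overlap, which 22.7% of tested genes showed in this direction, 24.2% in the other and 46.9% in either. The study's methods called a gene at an unadjusted p below 0.05 if its log2 fold change was beyond 1 in either direction. This rule took S100a14 alone, and over all tested genes it called 8.11%, 4.34% lower and 3.77% higher.

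**Figure D1:**
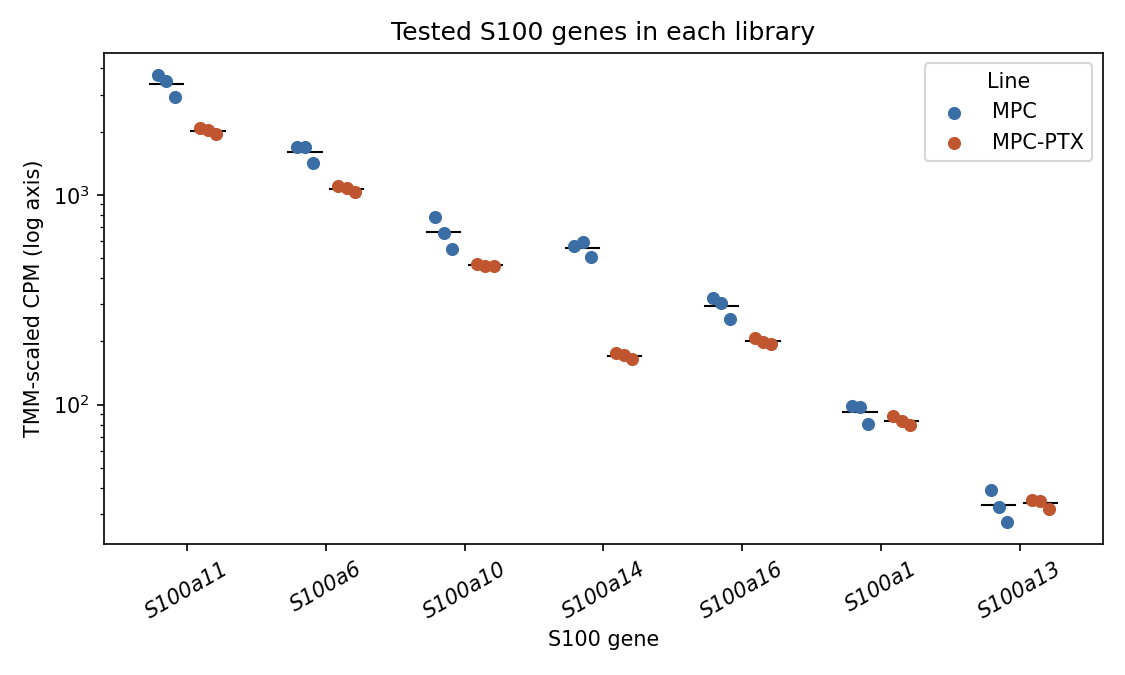
TMM-scaled CPM (log axis) of the 7 tested S100 genes, ordered by their mean in MPC; each point is 1 library and the short black line is the mean of 3. The MPC-PTX points of S100a11, S100a6, S100a10, S100a14 and S100a16 all lie below the MPC points, and the gap is widest for S100a14.

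S100a14, an epithelial S100 protein with diverged calcium-binding loops, lies on chromosome 3 of GRCm38 (chr3:90526856-90528837, plus strand). It had 571.2, 592.0 and 504.5 CPM in the MPC libraries and 175.1, 172.6 and 165.6 CPM in the MPC-PTX libraries. Every MPC-PTX library was below every MPC library. The mean fell from 556 ± 45.7 to 171 ± 4.91 CPM (SD, n = 3 each), a 3.25-fold lower level, and the log2 fold change was -1.70 (SE, the standard error, 0.08, adjusted p = 2.11e-05 in edgeR's test). It was the only S100 gene whose change passed edgeR's test against a log2 fold change of 1 (adjusted p = 0.000419).

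S100a11, a partner of annexin A1, lies at chr3:93520488-93526287 (plus strand). Its level was 3706, 3493 and 2915 CPM in MPC and 2077, 2036 and 1946 CPM in MPC-PTX, without overlap. The mean was 3372 ± 409 CPM in MPC and 2019 ± 67.2 CPM in MPC-PTX (SD, n = 3 each), and the log2 fold change was -0.74 (SE 0.10, adjusted p = 0.00171 in edgeR's test). Of the 50-base stretches in its transcripts, 41.1% also occur in transcripts of other genes, led by Gm12854, Gm7665 and Gm29240, so its count depends on how the authors treated reads that map to several places, which is not given in the sources used here.

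S100a6, also called calcyclin, binds annexins and the calcyclin-binding protein. The gene starts at position 90612882 of chromosome 3. The 3 MPC libraries had 1688, 1681 and 1416 CPM and the 3 MPC-PTX libraries 1100, 1078 and 1028 CPM. All MPC-PTX libraries were lower, by a log2 fold change of -0.58 (SE 0.09, adjusted p = 0.00265 in edgeR's test).

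S100a16, an S100 protein found in many tissues, lies at chr3:90537254-90543151 (plus strand). It had 322.7, 305.1 and 255.0 CPM in MPC and 207.6, 198.5 and 194.0 CPM in MPC-PTX. The groups did not overlap, and the log2 fold change was -0.56 (SE 0.09, adjusted p = 0.00450 in edgeR's test).

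S100a10, which does not need calcium to bind its partner annexin A2 and helps to place plasminogen activators at the cell surface, lies at chr3:93555080-93564643 (plus strand). Its libraries ranged more widely in MPC, at 783.0, 656.8 and 548.7 CPM, than in MPC-PTX, at 465.5, 456.3 and 457.9 CPM. The log2 fold change was -0.53 (SE 0.12, adjusted p = 0.0160 in edgeR's test). This call was lost without MPC replicate 2 or without any 1 of the MPC-PTX libraries, with an adjusted p of 0.0596 to 0.0675 in edgeR's test, although the direction did not change.

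S100a1, best known in muscle as a regulator of calcium release, and S100a13, which takes part in the release of FGF1 and IL1A from cells, gave no call. S100a1 (chr3:90511034-90514392, minus strand) had 98.7, 97.0 and 81.2 CPM in MPC and 88.1, 83.2 and 79.5 CPM in MPC-PTX. Its groups overlapped, and the 95% interval of its log2 fold change reached from -0.36 to 0.08 (estimate -0.14, adjusted p = 0.293 in edgeR's test). S100a13 (chr3:90514435-90524581, plus strand) had 39.3, 32.5 and 27.6 CPM in MPC and 35.1, 34.7 and 31.8 CPM in MPC-PTX. Its estimate was 0.03 with an interval from -0.28 to 0.34 (adjusted p = 0.874 in edgeR's test), so a change of the size of those in S100a6 or S100a10 lay outside the interval.

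One library moved with all 7 values. MPC replicate 3 lay below the mean of the other 2 MPC libraries by 0.20 (S100a14) to 0.39 (S100a10) on the log2 scale, while the median over all tested genes was -0.00. Across 11776 genes the same difference had a Spearman correlation of -0.58 with GC content and 0.47 with transcript length, given as a description since genes share their library. Transcripts of the 10 S100 genes are 498 to 1683 bases long, and the median of tested genes is 3413. Without that library the log2 fold changes were -1.82 for S100a14, -0.89 for S100a11, -0.71 for S100a6, -0.70 for S100a16 and -0.70 for S100a10, and S100a1 was also called (-0.28, adjusted p = 0.00331 in edgeR's test). With each library corrected for GC content and transcript length, the 5 calls remained, with log2 fold changes of -1.63 for S100a14, -0.68 for S100a11, -0.50 for S100a6, -0.44 for S100a16 and -0.44 for S100a10.

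**Figure D2:**
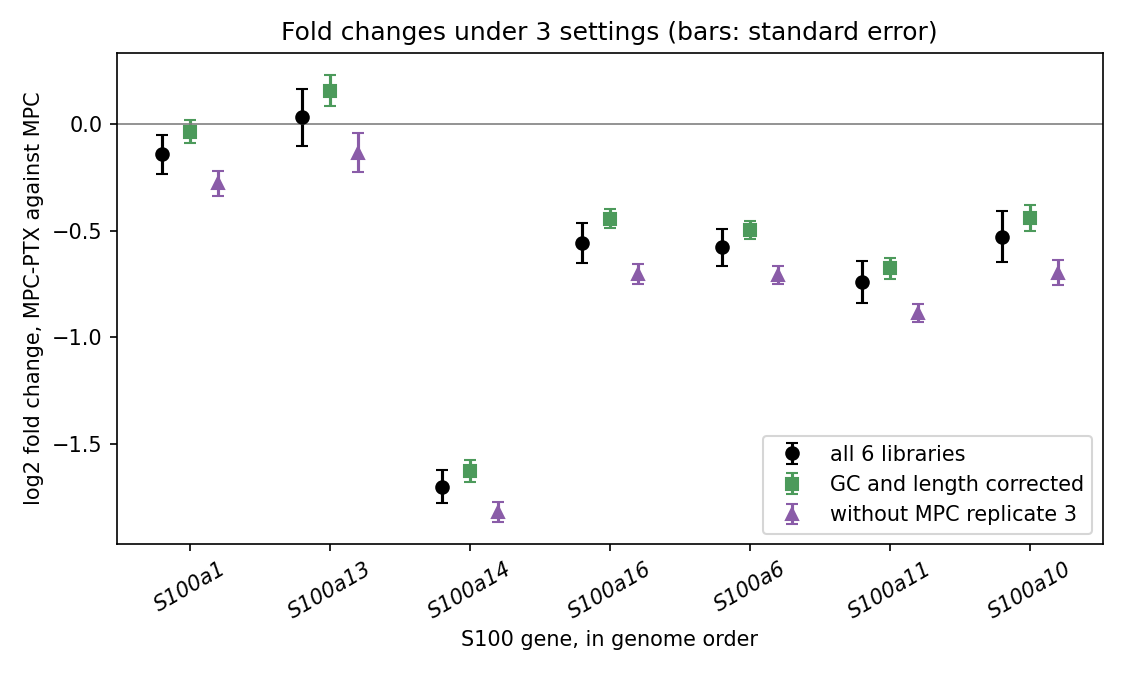
Log2 fold change (MPC-PTX against MPC) of the 7 tested S100 genes in genome order, fitted on all 6 libraries (circles), after correction for GC content and length (squares) and without MPC replicate 3 (triangles); bars are the standard error. S100a14 lies between -1.82 and -1.63 in all 3, and S100a13 changes sign.

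Compared per length (TPM, counts divided by the merged exon length and scaled to the same sum in each library), S100a11 was the most abundant of the 10 genes in both lines and held rank 1 to 3 among 21851 genes in the 6 libraries. Its TPM was 21082 ± 1782 in MPC and 13459 ± 376 in MPC-PTX (SD, n = 3 each). S100a6 followed at 3732 and 2663 TPM, with rank 20 to 30, and S100a10 at 1744 and 1292 TPM. S100a14 was the next in MPC, at 1030 TPM, ahead of S100a16 at 582, S100a1 at 425 and S100a13 at 148 TPM. In MPC-PTX S100a14 stood at 337 TPM, below S100a16 at 421 and S100a1 at 410 TPM, and its rank moved from 113 to 125 in MPC to 425 to 450 in MPC-PTX. The neighbours S100a16 and S100a1 in the order of MPC-PTX had overlapping libraries, at 411 to 435 and 392 to 430 TPM. With the length of the longest transcript S100a14 was also below both in MPC-PTX, at 258 TPM. By that length S100a11 held rank 1 to 4, at 15690 TPM in MPC and 10027 TPM in MPC-PTX.

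The 10 genes together took 0.701%, 0.684% and 0.568% of all counts in the MPC libraries and 0.420%, 0.411% and 0.396% in the MPC-PTX libraries. S100a11 and S100a6 supplied 74.8% to 76.7% of those counts in every library. S100a14 supplied 7.92% to 8.78% of them in MPC and 4.22% to 4.25% in MPC-PTX, so the S100 transcripts differed in make-up as well as in total.

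Ratios of counts within a library, which no scaling between libraries touches, were taken for 5 pairs of tested members that follow each other in genome order. Genes outside the tested members can lie between them, as S100a3 and S100a4 do between S100a16 and S100a6. S100a14 per S100a16 was 1.77, 1.94 and 1.98 in MPC and 0.843, 0.869 and 0.854 in MPC-PTX, so the larger count of the pair passed from S100a14 to S100a16. S100a16 per S100a6 was 0.180 to 0.191 in MPC and 0.184 to 0.189 in MPC-PTX, and these groups overlapped. S100a11 per S100a10 was 4.73, 5.32 and 5.31 in MPC and 4.46, 4.46 and 4.25 in MPC-PTX. The exact two-sided permutation test gave p = 0.1, the smallest that 3 libraries against 3 allow, for S100a14 per S100a16, S100a13 per S100a14 and S100a11 per S100a10 (adjusted p = 0.167 over the 5 pairs), and p = 0.2 for S100a1 per S100a13 and p = 0.4 for S100a16 per S100a6.

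S100a4, S100a8 and S100a9 were at or near 0 in every library. S100a4, known for binding non-muscle myosin and for its link to metastasis, had 1, 0 and 2 counts in MPC and 0, 1 and 1 in MPC-PTX. S100a8 and S100a9, whose products form the neutrophil protein calprotectin, had 1 count each, in MPC alone. A summed count of 0 over a line would allow up to 0.0501 CPM (without TMM) in MPC and 0.0487 in MPC-PTX. This limit is 3 counts in the summed libraries and covers counting error only. Among these genes only S100a8 and S100a9 in MPC-PTX had a summed count of 0, and the other sums allow more. No fold is given. Of the exon bases of S100a4, 51.7% overlap Gm42674 on the same strand, and Gm42674 was itself listed at 0 in all 6 libraries. How reads that lie in both genes were counted is not given in the sources used here. If such reads were left out, both genes would be counted too low, so the level of S100a4 remains uncertain. Among the 12 neutrophil markers 9 had at most 3 counts in every library, among them Mpo, Elane and Ngp at 0. Ltf, the lactoferrin gene, was detected and lower in MPC-PTX, with 6250 to 6955 counts in MPC and 2924 to 4050 in MPC-PTX. Ly6g had 12 to 37 counts in MPC and 7 to 11 in MPC-PTX and was also called lower, but lost the call without any 1 library other than MPC replicate 3 (highest adjusted p = 0.140 in edgeR's test). All 8 lymphocyte markers had at most 3 counts in every library.

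RefSeq promoter windows (GRCm38.p6, from 250 bases before to 49 bases after the first base of the transcript) were found for 8 of the 10 genes. They were searched on both strands for 5 motifs. The first, TATAAA, is the core of the TATA box, which places the start of transcription in some genes. The GC box was searched as GGGCGG, the letters that Sp1 and related factors read. The AP-1 motif, bound by Fos and Jun proteins, was searched as TGAGTCA, and the CCAAT box by its name. The E-box, read by basic helix-loop-helix factors, was searched as CACGTG. No match overlapped another in the windows of these genes. The stretches just before the start are shown for the most abundant gene and for the undetected genes that have a TATA box at the usual place, with the matched letters in capitals.
S100a11 (chr3:93520346-93520495, plus strand): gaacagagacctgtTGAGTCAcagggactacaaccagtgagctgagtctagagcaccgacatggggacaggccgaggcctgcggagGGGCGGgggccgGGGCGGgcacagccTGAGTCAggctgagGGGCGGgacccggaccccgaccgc
S100a4 (chr3:90603670-90603769, plus strand): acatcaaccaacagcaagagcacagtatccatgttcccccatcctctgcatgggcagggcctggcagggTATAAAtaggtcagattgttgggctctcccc
S100a8 (chr3:90668971-90669070, plus strand): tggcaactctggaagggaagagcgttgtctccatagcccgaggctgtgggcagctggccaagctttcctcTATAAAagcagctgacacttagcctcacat

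The S100a11 stretch held GGGCGG at 3 places and TGAGTCA at 2 places. GGGCGG occurs in 35.7% and TGAGTCA in 5.20% of all 32851 promoter windows. S100a4 and S100a8 held TATAAA on the strand of the gene 31 and 30 bases before the start. TATAAA within 40 to 20 bases before the start occurs in 1.99% of all windows. None of the tested S100 genes with a window had it there. S100a9, also near 0, lacked it there too, and its TATAAA on the strand of the gene began at the annotated start itself. S100a1 and S100a13, the pair without a call, are transcribed away from each other from starts 105 bases apart, and their windows held none of the 5 motifs. These matches are letters in a window and do not show that a factor binds.

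S100 genes outside the 10 were sparse. S100g, an intestinal calcium-binding protein, had 105, 232 and 219 counts in MPC and 100, 93 and 62 in MPC-PTX, and its log2 fold change was -1.20 (SE 0.28, adjusted p = 0.0165 in edgeR's test). That call was lost without MPC replicate 2 and without any 1 of the MPC-PTX libraries (highest adjusted p = 0.0723 in edgeR's test). S100a3 had 14 to 21 counts in MPC and 9 to 31 in MPC-PTX and gave no call.

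Among 18 genes for proteins that S100 proteins bind, 15 were tested, 8 of them lower, none higher and 7 without a call, with a median log2 fold change of -0.27. The lower ones included the annexins Anxa5 (-0.93), Anxa1 (-0.70), Anxa11 (-0.55), Anxa2 (-0.38) and Anxa6 (-0.34). Anxa1, the partner of S100a11, had 21862, 22658 and 25533 counts in MPC and 16839, 16089 and 12458 in MPC-PTX (adjusted p = 0.00020 in edgeR's test). Anxa2, the partner of S100a10, was called with all libraries (adjusted p = 0.0198 in edgeR's test). Anxa2 and Anxa6 lost the call without MPC replicate 2 or without any 1 of the MPC-PTX libraries (highest adjusted p = 0.0844 for Anxa2 and 0.0592 for Anxa6 in edgeR's test). Sugt1, at -0.27, lost it without any 1 of the MPC-PTX libraries (highest adjusted p = 0.0974 in edgeR's test). Myh9, the myosin heavy chain that S100a4 binds, was lower by a log2 fold change of -0.89. Fgf1, a growth factor released with S100a13, had the largest decrease of the list, from 1244, 1973 and 2361 counts in MPC to 645, 655 and 519 in MPC-PTX (log2 fold change -1.68, standard error 0.20, adjusted p = 0.00130 in edgeR's test). Cacybp, the calcyclin-binding protein, and Il1a gave 0.20 and -0.13 without a call. Ahnak, another gene of the list, gave 0.16 without a call.

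Of 8 genes for receptors of released S100 proteins 7 were tested, with 1 higher and 2 lower. Mcam rose by a log2 fold change of 0.63. Bsg (basigin) was at -0.59, and Alcam, an adhesion molecule of the immunoglobulin family, was at -1.54 with 1570, 2156 and 3412 counts in MPC and 863, 941 and 740 in MPC-PTX (adjusted p = 0.00408 in edgeR's test). Tlr4 gave 0.35 without a call (adjusted p = 0.0896 in edgeR's test), and Ager had 1 to 9 counts in a library and was not tested.

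**Figure D3:**
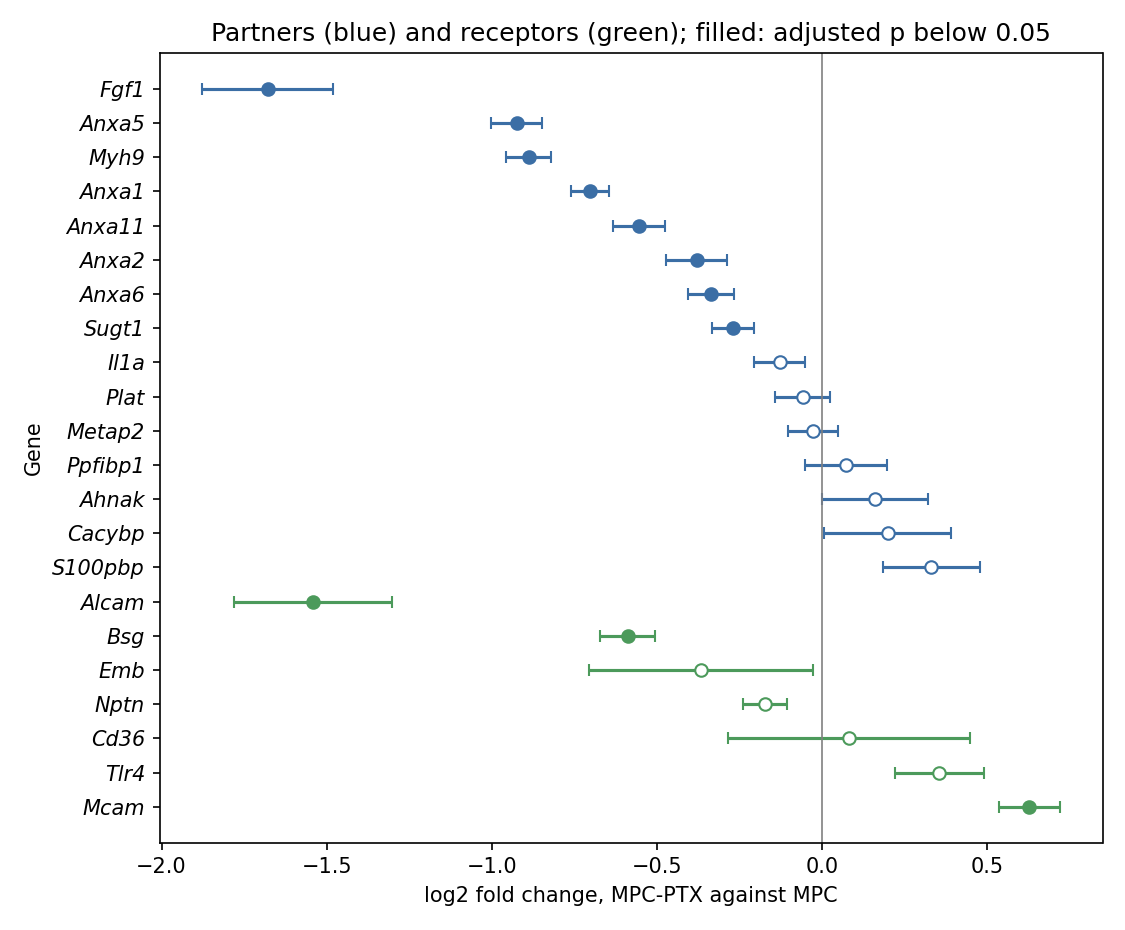
Log2 fold change (MPC-PTX against MPC) of the tested S100 partners (blue) and S100 receptors (green), each point with its standard error; filled points have an adjusted p below 0.05. The 8 filled partners lie left of 0, from Fgf1 at -1.68 to Sugt1 at -0.27, and Mcam at 0.63 is the filled point right of 0.

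Of 40 other EF-hand genes, 32 were tested. In MPC-PTX 17 were lower and 6 higher, with a median log2 fold change of -0.23. The calmodulin genes Calm3 and Calm2 were lower, at -0.32 and -0.24. Beyond a log2 fold change of 1 were Micu2, a regulator of calcium uptake by mitochondria (-2.15), and the actin crosslinker Actn1 (-1.19) on the lower side, and Ncald (4.15), Rcn1 (1.67) and the matrix protein Sparc (1.21) on the higher side. Ncald and Rcn1 had at most 7 counts in an MPC library. Without any 1 of the MPC-PTX libraries the calls of Calm2, Calm3 and Rcn1 were lost, and without MPC replicate 2 those of Calm3 and Rcn1 (highest adjusted p = 0.0970 for Calm2, 0.0692 for Calm3 and 0.110 for Rcn1 in edgeR's test). Sri (sorcin) was higher by 0.98, with 9549 to 10381 counts in MPC and 16894 to 23220 in MPC-PTX.

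On chromosome 3 the S100 genes from S100a1 to S100a9 span 184.7 kb, and S100a11 and S100a10 lie 2825 kb further on, 28.8 kb apart. Between the first and the last of the 10 genes, 13 other genes were tested, of which 8 were lower, 2 were higher and 9 were called beyond a log2 fold change of 1, and their median was -1.65. They were mostly genes of the cornified envelope. Ivl (involucrin) had 100, 176 and 232 counts in MPC and 3, 7 and 4 in MPC-PTX (log2 fold change -5.21, adjusted p = 0.00020 in edgeR's test). Sprr1a had 4160, 9253 and 8661 counts in MPC and 760, 716 and 520 in MPC-PTX (-3.54, adjusted p = 0.00028 in edgeR's test). Also lower were Crct1 (-4.31), Sprr2h (-2.77), Sprr3 (-2.68), Sprr2a3 (-2.54), the filaggrin gene Flg (-1.65) and Tchh, the trichohyalin gene (-0.96). Sprr3 lost the call without any 1 of the MPC-PTX libraries (highest adjusted p = 0.0667 in edgeR's test), and Flg without MPC replicate 2, MPC-PTX replicate 2 or MPC-PTX replicate 3 (highest adjusted p = 0.132). Higher were Pglyrp3, which encodes a peptidoglycan recognition protein (2.22, from 106, 110 and 133 counts to 628, 616 and 468), and Tdpoz8 (4.20, with 1 count in each MPC library).

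Direct neighbours of S100a14 moved in different ways. S100a13 on one side had a log2 fold change of 0.03 and S100a16 on the other had -0.56. The 26 tested genes within 1 Mb of the S100a1 to S100a9 block included 7 lower and 2 higher, with a median of -0.13. The 8 within 1 Mb of S100a10 or S100a11 included 5 lower and 1 higher, with a median of -1.31. Ivl, Crct1, Tdpoz8, Flg and Tchh are among these 8 and also among the interval genes above, as S100a3 is among the 26. The 563 tested genes of chromosome 3 further than 1 Mb from a member had a median of -0.00, with 110 lower and 67 higher. They include genes from the middle of the interval, such as Sprr1a and Pglyrp3. Outside the S100 interval, the potassium channel gene Kcnn3 was lower by a log2 fold change of -2.00.

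**Figure D4:**
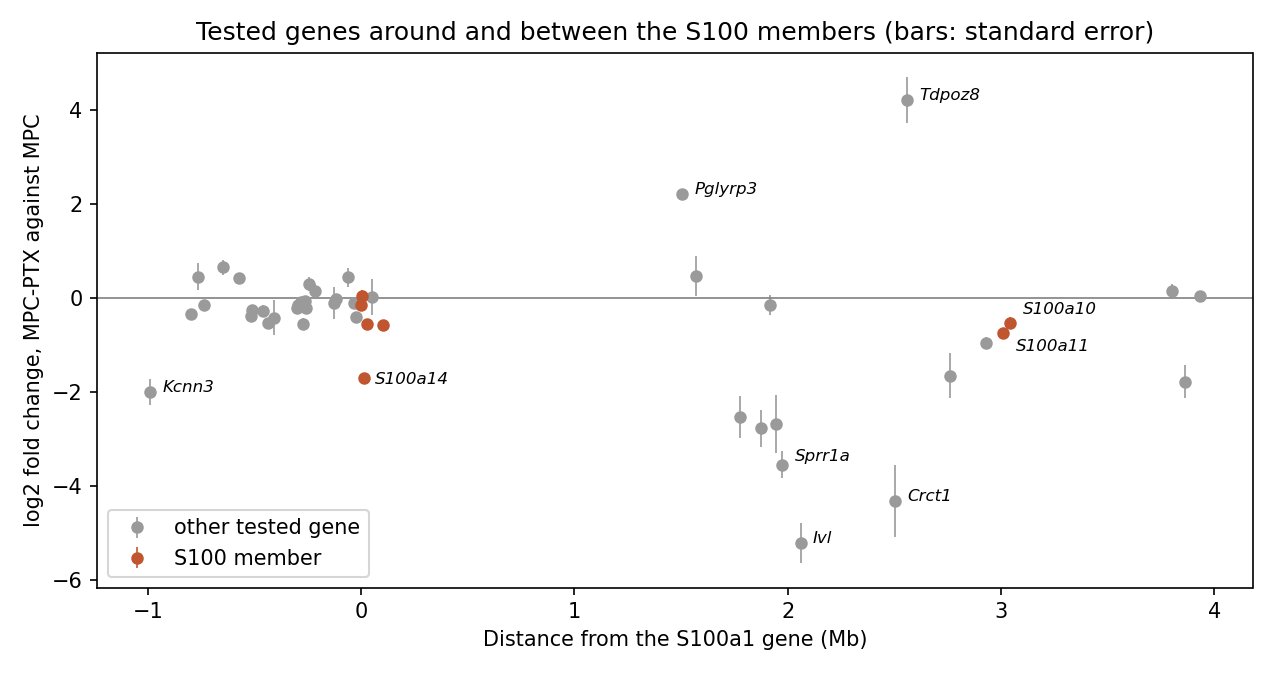
Log2 fold change (MPC-PTX against MPC, bars the standard error) of tested genes against the distance of their start from the S100a1 gene in Mb, with the 7 tested S100 members in colour. S100a14 at -1.70 stands below its neighbours, and the genes between S100a6 and S100a11 spread from Ivl at -5.21 to Tdpoz8 at 4.20.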

How the data were processed

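The authors filtered reads of poly-A selected libraries with fastp 0.22.0, mapped them with HISAT2 and deposited raw read counts per gene; genome build, annotation, counting tool and use of strand are not given in the sources used here. Counts were scaled with TMM, filtered with filterByExpr (minimum count 10) and tested with edgeR 4.0.16 (robust glmQLFit and glmQLFTest, R 4.3.3) over 11795 genes with all 6 libraries. The standard error is the log2 fold change divided by the root of the F statistic. The script was tested on simulated data. Positions and lengths came from GENCODE (GRCm38) by Ensembl identifier, for 21902 of 21959 genes, and promoters from RefSeq. GC and length correction used loess (span 0.3). Alternatives included DESeq2 1.42.0, other scalings, filters, a replicate block, glmTreat and leaving out each library.

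The S100 members and the lists were chosen with earlier results of these data known. Named were all members, listed genes and genes between or next to members called at an adjusted p below 0.05 and beyond 1 on the log2 scale, and markers near 0. Not every gene that meets this rule is reported here. Other genes, such as the annexins, calmodulins, Sri, Tchh and receptors, were named after their values were seen. The S100 genes outside the members were 7 on the list and S100a2, which was not on it and had at most 3 counts in a library.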

Additional observations from a re-analysis of the deposited data

How the results depend on the processing

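Over 15 alternatives, 96 of 105 values of the 7 tested S100 genes stayed on the same side of the threshold, 8 lost a call (S100a10 without each of 4 libraries, and 4 genes under glmTreat), 1 gained one and no called value reversed. The estimate of S100a13, never called, ranged from -0.13 to 0.17 and was below 0 with DESeq2 (-0.0034), with DESeq2's size factors (-0.0035), with 10 counts required in every sample (-0.0019) and without MPC replicate 3. Of 236 counts of called genes, 198 stayed within 1.5 times. Under glmTreat, which tests against a log2 fold change of 1, the numbers called were 138 higher and 255 lower for all genes (1668 and 1841 in the analysis as reported), 1 lower S100 member, 0 lower among other S100 genes, 1 lower partner, 0 higher and 0 lower receptors, and 1 higher and 1 lower EF-hand gene. GC and length correction gave 2579 higher genes (2583 with the replicate block) and 1 higher partner. Requiring 10 counts in every sample gave 246 higher and 338 lower genes by the rule of the methods, against 445 and 512. Without a filter, 2 other S100 genes were lower.

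Leaving out 1 library gave 803 to 3020 higher and 1077 to 3227 lower genes, the most without MPC replicate 3. Without that library Tlr4, Il1a and the S100 partner Ahnak also gained a call in the same direction. Ahnak was then higher by 0.33 (adjusted p = 0.000546 in edgeR's test), and its estimate ranged from -0.13 to 0.33 over the alternatives. Rcn1 lost its call in the fit on all libraries with the replicate block. The fits that left out 1 library gave 4 to 6 lower S100 members and 0 to 1 lower other S100 genes. For partners they gave 0 to 3 higher and 5 to 9 lower, and for receptors 1 to 2 higher and 2 to 3 lower. For EF-hand genes they gave 4 to 8 higher and 9 to 19 lower. Deviations of same-numbered libraries from the mean of their line had correlations of 0.15, -0.02 and 0.17 across genes. The best match of MPC replicates 1, 2 and 3 was MPC-PTX replicate 1, 1 and 3. Deviations from a mean of 3 libraries cannot decide whether the numbers pair them, and the labels do not say. With the replicate block 5 S100 members were lower, and all genes gave 1787 higher and 1717 lower. Depth limits S100a4, S100a8 and S100a9, for which a change could not be detected. The S100a4 counts also depend on how reads in the overlap with Gm42674 were counted.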

Other observations

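S100a5, which is not among the 10 genes, had 5, 6 and 19 counts in MPC and 3, 0 and 0 in MPC-PTX, and was called only without the filter on low counts (log2 fold change -3.24, adjusted p = 0.0361 in edgeR's test). Sprr2e, a cornified envelope gene in the interval, had 0, 1 and 0 counts in MPC and 11, 16 and 11 in MPC-PTX, the opposite order to its relatives Sprr1a and Sprr2h. Its relative Sprr2f had 0 counts in each MPC library and 3, 1 and 1 in MPC-PTX. Sprr2d had 0, 1 and 0 in MPC and 5, 1 and 5 in MPC-PTX, with overlapping groups. Sprr2e, Sprr2f and Sprr2d were too sparse to be tested.

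Markers of stratified epithelium, the tissue in which the epidermal differentiation complex is best known, moved in both directions. Krt14 had 15, 4 and 9 counts in MPC and 690, 641 and 523 in MPC-PTX (log2 fold change 5.95). Krt6a and Trp63 were higher by 1.67 and 1.81, from 15 to 18 and 8 to 15 counts in an MPC library. Krt15 and Krt4 were lower, at -3.58 and -1.99.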
